A study of Homo sapiens with 6 samples.

Results

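Glycine cleavage and glycine uptake were followed through 4 genes, AMT, GLDC, GCSH and SLC6A9, out of 28265 gene rows in the count tables. The genes were taken by symbol, and each symbol matched 1 row. The measurements were read counts from polyA RNA sequencing of 3 libraries of MDA-MB-231GlnIND cells and 3 libraries of parental MDA-MB-231 cells. MDA-MB-231 is a long-used human cell line from a triple-negative breast cancer. GlnIND cells are its glutamine-independent derivative, kept for more than 6 weeks in glutamine-free RPMI 1640 with 10% dialyzed fetal bovine serum. Parental cells grew in glutamine-replete RPMI 1640 with 10% fetal bovine serum that was not described as dialyzed. Cell population, glutamine supply and serum therefore changed together and cannot be told apart. Whether GlnIND cells are a clone or a pool was not stated, nor whether each library is an independent culture, so the p-values rest on library-to-library spread, and that spread may be technical.

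The glycine cleavage system is a mitochondrial enzyme complex that breaks glycine into carbon dioxide and ammonia and passes the remaining carbon to tetrahydrofolate as a one-carbon unit. GLDC encodes the P protein, which decarboxylates glycine. GCSH encodes the H protein, whose lipoyl arm carries the intermediate, and AMT encodes the T protein, the aminomethyltransferase that releases ammonia and hands the carbon to folate. The L protein, dihydrolipoamide dehydrogenase, is encoded by DLD and reoxidises the lipoyl arm, a task it shares with other mitochondrial dehydrogenases. SLC6A9 encodes GlyT1, a sodium- and chloride-coupled glycine transporter of the plasma membrane, best known for clearing glycine around synapses. The series asks how breast cancer cells adapt to long-term glutamine withdrawal. Glycine metabolism touches that question through its link to serine and folate.

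AMT and SLC6A9 were higher and GCSH lower in GlnIND cells, and their RefSeq promoter sequences are shown because these 3 genes carry the differences described here. Each sequence runs 5′ to 3′ on the gene's own strand from 250 bases before to 50 bases after the annotated start (GRCh38.p14, a later build than that of the counts). The windows are chr3:49422424-49422723 on the minus strand for AMT, chr1:44031413-44031712 on the minus strand for SLC6A9 and chr16:81096346-81096645 on the minus strand for GCSH. Capitals mark matches to CCAAT or to GGGCGG on either strand.
AMT: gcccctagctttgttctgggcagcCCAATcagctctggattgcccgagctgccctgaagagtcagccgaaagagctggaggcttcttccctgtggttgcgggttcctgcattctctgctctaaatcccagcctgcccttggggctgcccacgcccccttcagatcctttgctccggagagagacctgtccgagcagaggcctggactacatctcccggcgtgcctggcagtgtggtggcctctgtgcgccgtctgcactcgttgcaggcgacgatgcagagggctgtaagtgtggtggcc
SLC6A9: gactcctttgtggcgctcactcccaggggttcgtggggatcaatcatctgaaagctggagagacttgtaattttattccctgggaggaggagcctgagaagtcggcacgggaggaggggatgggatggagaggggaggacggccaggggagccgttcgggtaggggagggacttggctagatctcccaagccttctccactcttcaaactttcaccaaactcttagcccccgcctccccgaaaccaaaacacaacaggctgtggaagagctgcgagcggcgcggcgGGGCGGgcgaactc
GCSH: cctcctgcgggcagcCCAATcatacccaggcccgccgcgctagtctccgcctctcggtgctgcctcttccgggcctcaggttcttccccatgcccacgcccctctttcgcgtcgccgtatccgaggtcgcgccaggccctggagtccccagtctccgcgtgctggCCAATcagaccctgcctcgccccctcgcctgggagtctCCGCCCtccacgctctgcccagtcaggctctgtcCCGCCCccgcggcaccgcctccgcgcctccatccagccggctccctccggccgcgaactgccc
All 4 genes matched the promoter table. The AMT window held 1 CCAAT, the GCSH window held 2 CCAAT and 2 GGGCGG, and the SLC6A9 window held 1 GGGCGG, which lay after the start. Among 27305 promoters of equal length, 35.7% held CCAAT and 44.6% held GGGCGG. The motifs TGATGNAA, CACGTG and TATAAA were searched on both strands as well and were in none of the 3 windows. They were in 3.67%, 7.43% and 12.0% of all promoters. Only the letters of these windows were searched, and SLC6A9 has further annotated starts.

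GC made up 62.3% of the AMT window, 60.0% of the SLC6A9 window and 72.7% of the GCSH window, beside a median of 58.3% over all promoters. The AMT window held 13 CG pairs, the SLC6A9 window 16 and the GCSH window 31, beside a median of 14. In these terms the promoters of the genes that were higher lay nearer the genome's median than that of the gene that was lower. With 3 genes this is a description only.

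Depth and cell identity bear on all values below. Total counts ranged from 21276815 to 24594248 in GlnIND libraries and from 18256219 to 21741371 in parental libraries. Levels are given as CPM, read counts normalised for sequencing depth with TMM library factors, and 6 counts, the smallest amount treated as detected, equal 0.230 to 0.343 CPM on this scale. Intervals and floors cover counting error only. Of 5 receptor and luminal markers, which triple-negative cells are expected to lack or express weakly, ESR1 and PGR were under 1 CPM in every library, GATA3 did not pass the test, FOXA1 was called lower and ERBB2 higher, at 63.7 ± 1.74 CPM in GlnIND and 36.1 ± 4.95 CPM in parental cells (SD, n = 3 each). All 8 markers of the line itself were detected in both groups. Of these VIM and EGFR were called higher, ANXA1 did not pass the test, and CD44, CAV1 and the keratin genes KRT18, KRT8 and KRT7 were called lower. VIM averaged 6077 CPM in GlnIND and 3979 CPM in parental cells, and KRT7 averaged 17.4 CPM in GlnIND and 77.4 CPM in parental cells. Of 13 markers of blood, endothelial, fibroblast, glial and neuronal cells, 7 stayed under 1 CPM in every library and the T-cell marker CD3E was at 0. The summed level of the 13 was 202 to 205 CPM in GlnIND and 169.5 to 213 CPM in parental libraries, most of it CD68, which did not pass the test at a log2 fold change of -0.01. Of the 6 markers of other cell types that could be tested, the remaining 5 were all called higher: PECAM1 at 0.85, COL1A1 at 1.29, PDGFRB at 1.52, GFAP at 1.34 and SYP at 2.29 (log2 fold changes, edgeR adjusted p at most 0.00378). Their part in the results for AMT, SLC6A9 and GCSH was not tested.

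AMT was 3.60-fold higher in GlnIND cells. Its level was 4.53, 4.70 and 5.72 CPM in GlnIND libraries 1, 2 and 3, against 2.13, 1.14 and 0.832 CPM in parental libraries 1, 2 and 3. Every GlnIND library lay above every parental library, and parental 1 stood highest among the parental libraries. The group means were 4.98 ± 0.643 CPM in GlnIND and 1.37 ± 0.679 CPM in parental cells (SD, n = 3 each), from 363 GlnIND and 79 parental counts. The log2 fold change was 1.85 (SE 0.296, edgeR quasi-likelihood test with Benjamini-Hochberg adjustment over all genes, adjusted p = 0.000541). The parental counts of 43, 20 and 16 make the fold imprecise. It stood at 2.33 on the log2 scale without parental 1 (edgeR adjusted p = 1.35e-10) and at 1.56 without parental 3 (edgeR adjusted p = 0.00102). Leaving out parental 1 also raised the calls over all genes, to 4601 higher and 4679 lower, against 3965 and 3888 with all libraries. No other library left out gave as many calls.

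GCSH moved the other way and was 0.651 times the parental level. Its level was 9.91, 9.49 and 8.98 CPM in the GlnIND libraries, against 14.1, 14.4 and 15.1 CPM in the parental libraries. The groups did not overlap, and the spread within each group was small. Mean levels were 9.46 ± 0.465 CPM in GlnIND and 14.5 ± 0.504 CPM in parental cells (SD, n = 3 each). The log2 fold change was -0.62 (SE 0.109, edgeR adjusted p = 0.000955). GCSH has processed copies elsewhere in the genome. RefSeq lists 6 GCSH pseudogenes, of which 1, GCSHP3, had a row, at 0 counts in every library. Reads that match a copy as well as GCSH may have been lost or misplaced, so the GCSH level is uncertain.

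GLDC, the decarboxylase that starts glycine cleavage, was close to undetected. It had 2, 6 and 2 counts in the GlnIND libraries and 4, 0 and 8 counts in the parental libraries. GlnIND 2 was at the floor of 6 counts, only parental 3 exceeded it, and the groups overlapped. GLDC did not pass the filter on low counts and was not tested. Its level was 0.139 ± 0.0963 CPM in GlnIND and 0.205 ± 0.208 CPM in parental cells (SD, n = 3 each), and the GlnIND over parental ratio of its counts per total was 0.729, with an exact Clopper-Pearson interval (95%) of 0.176 to 2.87 on 5 and 6 read pairs. A difference within these bounds was not detectable at this depth. RefSeq lists 1 GLDC pseudogene, which had no row of its own, and a count near 0 in these tables is not by itself proof of low expression.

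SLC6A9 was 3.89-fold higher in GlnIND cells. The GlnIND libraries were at 15.1, 16.9 and 15.2 CPM, against 3.08, 4.52 and 4.57 CPM in the parental libraries. Again no GlnIND library came near the parental range, and here parental 1 was the lowest parental library, where for AMT it was the highest. The means were 15.7 ± 1.02 CPM in GlnIND and 4.06 ± 0.850 CPM in parental cells (SD, n = 3 each), from 1138 GlnIND and 229 parental counts. The log2 fold change was 1.96 (SE 0.163, edgeR adjusted p = 9.45e-06). SLC6A9 is known from glia and neurons, and 2 marker genes of those cells were also called higher: the astrocyte filament gene GFAP averaged 5.58 CPM in GlnIND and 2.20 CPM in parental cells, and the synaptic vesicle gene SYP averaged 1.06 CPM in GlnIND and 0.218 CPM in parental cells. The neuronal nuclear gene RBFOX3 had 15 counts in all GlnIND libraries and 0 in all parental libraries. The increase was not limited to such genes, since the endothelial marker PECAM1 and the fibroblast markers COL1A1 and PDGFRB were called higher too. In bulk RNA, more cells that express a gene and more RNA per cell cannot be told apart.

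**Figure D1:**
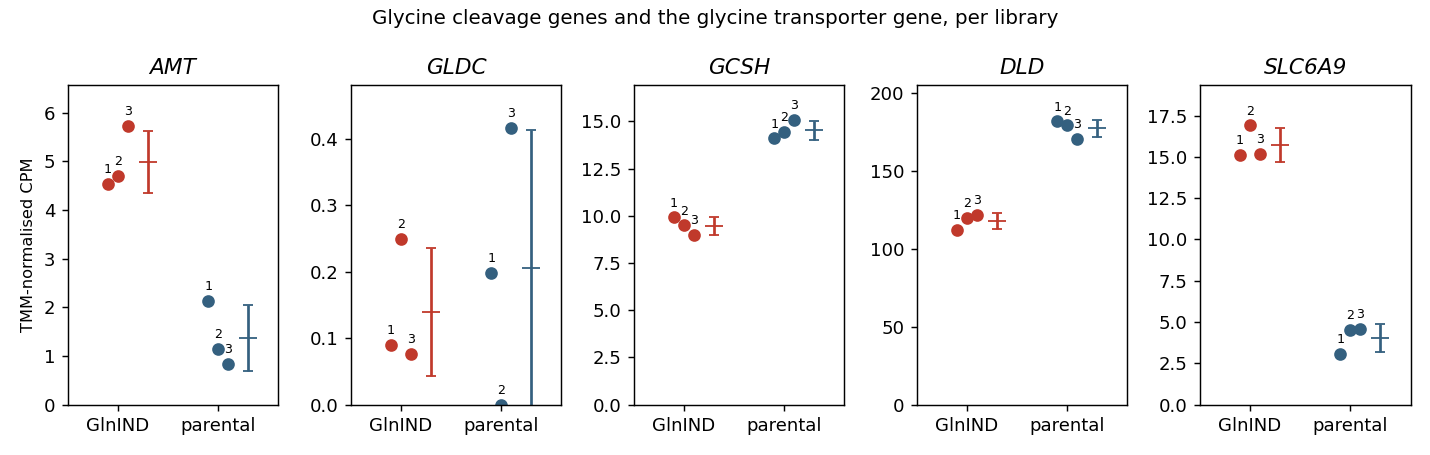
TMM-normalised CPM of the glycine cleavage genes AMT, GLDC, GCSH and DLD and of the transporter gene SLC6A9 in each library, numbered by replicate, with the mean and SD beside the points; each panel has its own linear axis from 0. AMT at 4.53 to 5.72 CPM and SLC6A9 at 15.1 to 16.9 CPM in GlnIND lie above all parental points, GCSH and DLD lie below them, and GLDC overlaps.

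Of the 3 tested members, 2 were called higher and 1 lower at an adjusted p under 0.05. Calls were common in this comparison: of 13949 tested genes 28.4% were called higher and 27.9% lower, 56.3% in all. The share called does not set these genes apart. The size of the change can be read beside the interquartile range of all tested genes, which ran from -0.35 to 0.46 on the log2 scale. AMT, SLC6A9 and GCSH all lay outside it, GCSH by the least. By construction such a range leaves as many tested genes outside as inside, so lying outside it does not set these genes apart either. Group ranges did not overlap for these 3 genes. The same held at 65% of all tested genes, with GlnIND above at 33.7% and below at 31.3%. Scaling by library totals alone moved the median of all log2 fold changes to 0.18, against 0.03 with TMM factors, and the split of calls to 5356 higher and 2810 lower genes, against 3965 and 3888. Relative to that median AMT stood at 1.82, SLC6A9 at 1.93 and GCSH at -0.65 under both scalings. A change of scaling shifts all genes by nearly the same amount, so these distances could hardly differ and are no separate support.

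DLD, the L protein gene, fell together with GCSH. It was at 112, 119 and 122 CPM in the GlnIND libraries, against 181, 179 and 170 CPM in the parental libraries, a log2 fold change of -0.59 with an SE of 0.0635 (edgeR adjusted p = 4.67e-05). The groups were well apart. DLD lies on chromosome 7 among genes that were mostly lower. Of its 40 nearest tested genes, 28 were called lower and 5 higher, with a median log2 fold change of -0.75. With that median removed DLD stood at 0.16 (edgeR adjusted p = 0.0556), whereas GCSH stood at -0.59 after the same step (edgeR adjusted p = 0.00157). After it 2 of the 3 tested members were called higher and 1 lower, beside 23.8% higher, 25.3% lower and 49% in all among the 13776 genes that could be placed. The call for DLD thus ended and its sign turned, and that for GCSH remained. The median around GCSH was -0.02, with 13 neighbours called higher and 12 lower. Its removal could hardly move GCSH, so this step cannot show whether a shorter stretch around GCSH shifted with it.

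Per exon length the order of the genes changed between the groups. Levels here are CPM per kilobase of exon, with GENCODE exon lengths of 2280 bases for AMT, 3096 for GCSH, 4315 for SLC6A9, 3760 for DLD and 4567 for GLDC. In GlnIND cells DLD was highest at 31.3 ± 1.34, followed by SLC6A9 at 3.64 ± 0.235, GCSH at 3.06 ± 0.150, AMT at 2.19 ± 0.282 and GLDC at 0.0304 ± 0.0211 (SD, n = 3). In parental cells DLD was at 47.1 ± 1.53, GCSH at 4.69 ± 0.163, SLC6A9 at 0.940 ± 0.197, AMT at 0.601 ± 0.298 and GLDC at 0.0448 ± 0.0456 (SD, n = 3). SLC6A9 and GCSH thus changed places. The GCSH to SLC6A9 ratio was 0.914, 0.783 and 0.826 in the GlnIND libraries, so other exon lengths could alter their order in GlnIND cells. Within parental cells the ranges of SLC6A9 and AMT overlapped. SLC6A9 was at 0.713 to 1.06 and AMT at 0.365 to 0.935 CPM per kilobase there. The exon lengths come from GENCODE release 29, and the annotation behind the counts was not given in the sources used here.

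**Figure D2:**
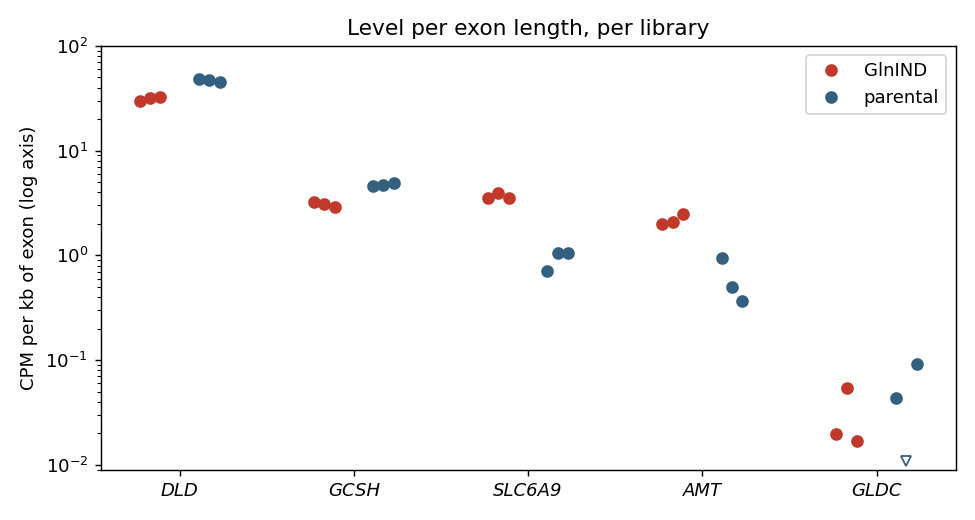
CPM per kilobase of exon on a log axis for each library, GlnIND left of parental within each gene; the open triangle at the bottom is 1 parental library with 0 GLDC counts. The 4 genes detected in every library span from DLD to AMT, with GLDC far below. DLD is at 31.3 in GlnIND and 47.1 in parental cells, and AMT at 2.19 in GlnIND and 0.601 in parental cells.

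The T protein gene and the H protein gene therefore drew closer. The ratio of AMT to GCSH per exon length was 0.621, 0.673 and 0.865 in the GlnIND libraries, against 0.206, 0.108 and 0.0749 in the parental libraries. Every GlnIND ratio was above every parental ratio. On the log2 CPM scale the AMT minus GCSH difference was -0.92 ± 0.245 in GlnIND and -3.42 ± 0.692 in parental cells (SD, n = 3 each), a change of 2.50. The exact two-sided permutation p was 0.1, the smallest that 3 libraries against 3 allow, and 0.15 after adjustment over 3 pairs.

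GCSH also fell relative to SLC6A9, by an amount similar to its fall relative to AMT. The log2 CPM difference was -0.73 ± 0.113 in GlnIND and 1.84 ± 0.281 in parental cells (SD, n = 3 each), a change of -2.57 (exact two-sided permutation p = 0.1, adjusted 0.15). For AMT against SLC6A9 the difference was -1.64 ± 0.225 in GlnIND and -1.58 ± 0.954 in parental cells (SD, n = 3 each), a change of -0.06 (exact two-sided permutation p = 1). This pair did not separate the groups, and parental 1 at -0.51 lay far from parental 2 and 3 at -1.90 and -2.34. Without parental 1 the change was 0.47.

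The neighbours of AMT on chromosome 3 were also higher. AMT lies between TCTA and NICN1 in RefSeq gene order. NICN1, which encodes a nuclear protein, was at 11.9, 16.2 and 16.9 CPM in the GlnIND libraries, against 3.42, 4.81 and 4.06 CPM in the parental libraries, a log2 fold change of 1.88 with an SE of 0.183 (edgeR adjusted p = 2.47e-05). TCTA, on the other side, had a log2 fold change of 1.24 with an SE of 0.0985 (edgeR adjusted p = 7.11e-06). The 3 adjacent genes thus rose together, with AMT and NICN1 at nearly the same fold. AMT and NICN1 lie on the same strand and their annotated spans overlap by 141 bases, so reads in that stretch may have been assigned to either gene or to none. Of the 40 tested genes nearest to AMT, 24 were called higher and 2 lower, with a median log2 fold change of 0.44. Only NICN1 and INKA1, a kinase inhibitor gene, were above AMT. With the window median removed AMT stood at 1.41 (SE 0.297, edgeR adjusted p = 0.00341).

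SLC6A9 lies on chromosome 1 between CCDC24 and KLF17, and both were higher in GlnIND cells. CCDC24, a coiled-coil gene of the opposite strand that overlaps SLC6A9 by 46 bases, was at 2.33, 2.66 and 2.38 CPM in the GlnIND libraries, against 0.694, 1.32 and 1.14 CPM in the parental libraries. The non-coding RNA gene LOC107984948 also overlaps the annotated span of SLC6A9, by 1049 bases, and had no row of its own. The strand setting of the counts was not given, so reads from overlapping genes may have been counted for SLC6A9. KLF17, which encodes a zinc finger transcription factor, had 140 counts in the GlnIND libraries and 18 in the parental libraries, a log2 fold change of 2.58 with an SE of 0.427 (edgeR adjusted p = 0.000661). The pair flanking SLC6A9 therefore moved in its direction, while the wider window did not. Of the 40 tested neighbours 13 were called higher and 7 lower, with a median of 0.14. With that median removed SLC6A9 stood at 1.81 (SE 0.163, edgeR adjusted p = 2.24e-05).

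Around GCSH on chromosome 16 the genes moved both ways. Of 40 tested neighbours 13 were called higher and 12 lower, with a median of -0.02. C16orf46, an adjacent gene, was at -0.23 (edgeR adjusted p = 0.388).

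**Figure D3:**
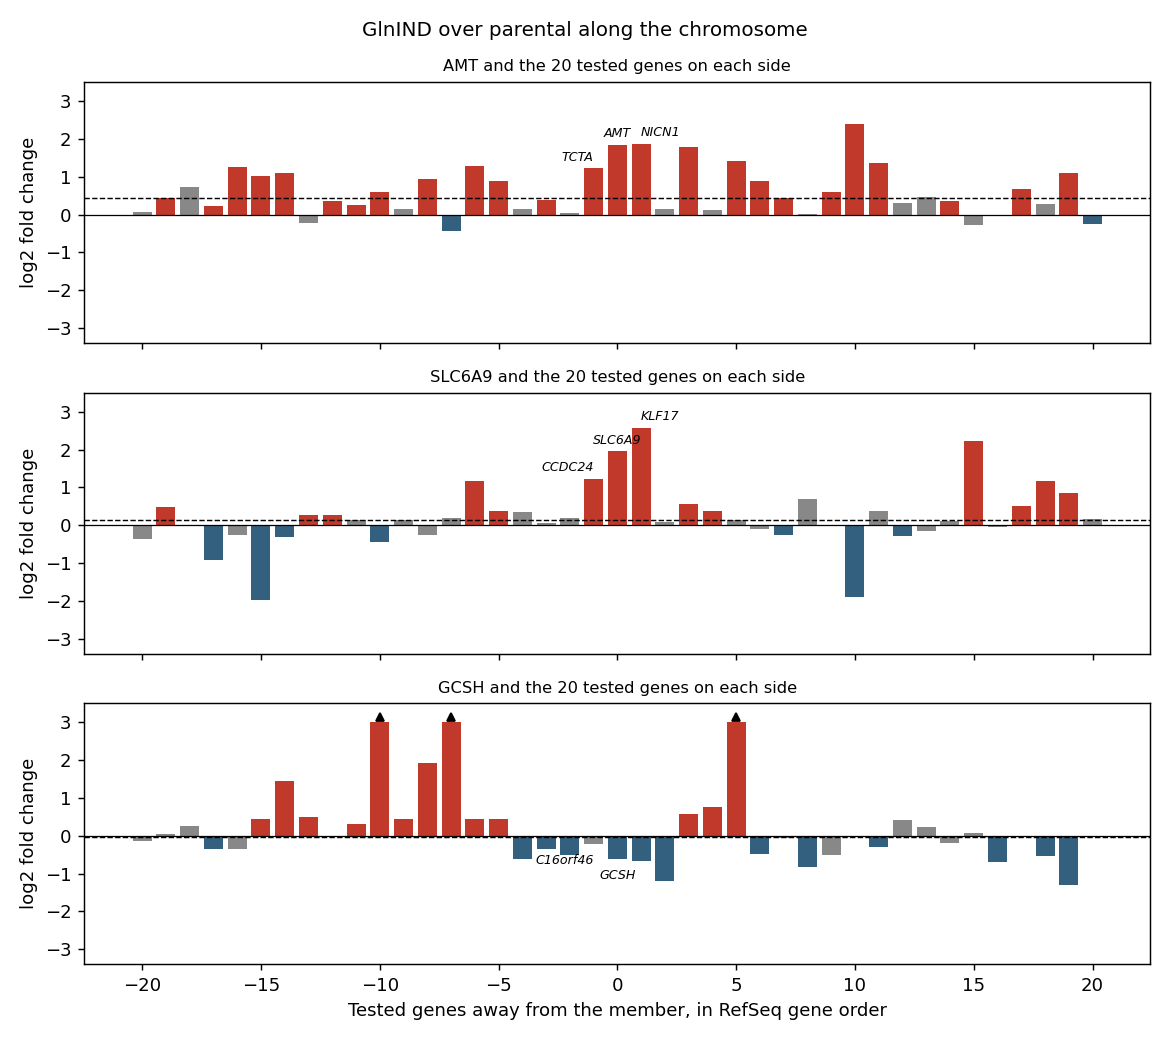
Log2 fold change, GlnIND over parental, of AMT, SLC6A9 and GCSH at position 0 and of the 20 tested genes on each side in RefSeq gene order; red bars were called higher, blue bars lower, grey bars were not called, the dashed line is the median of the neighbours, and triangles mark 3 bars longer than the axis. AMT sits in a row of mostly red bars with a median of 0.44, SLC6A9 and GCSH in mixed rows with medians of 0.14 and -0.02.

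The genes whose pattern over the 6 libraries was most like each member were found by the root mean square difference of centred log2 CPM. For AMT these were PCDHB12 (0.116), HMCN1 (0.122) and RHBDL2 (0.126), for SLC6A9 ABCC9 (0.0321), PCDHB3 (0.0988) and PORCN (0.111), and for GCSH FRRS1 (0.0270), HSPA14 (0.0292) and ABRACL (0.0303). The values are log2 units, so even the closest gene to AMT lay about as far off as the third gene for SLC6A9. The likeness was measured over the same libraries, so the direction of these 9 genes follows from how they were chosen. With neighbour medians removed PCDHB12 stood at 0.61 and PCDHB3 at 0.78, and neither passed the test (edgeR adjusted p = 0.0842 and 0.0522).

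The other genes around the glycine cleavage system were taken from lists defined by function, and their counts stand beside 28.4% called higher and 27.9% called lower over all tested genes. In the list of lipoate synthesis and lipoyl-dependent enzymes, all 12 genes were tested, 6 were lower, 1 was higher and 5 were not called, with a median log2 fold change of -0.24 beside 0.03 over all tested genes. The lipoyl synthase gene LIAS stood at -0.44 (SE 0.157, edgeR adjusted p = 0.0355). NFU1 and BOLA3, both of iron-sulfur cluster delivery to that enzyme, stood at -0.60 and -0.53 (edgeR adjusted p = 0.00105 and 0.00213). DLAT, the lipoyl-bearing subunit of pyruvate dehydrogenase, was lowest at -1.33 (SE 0.0737, edgeR adjusted p = 8.13e-07). With neighbour medians removed DLAT stood at -0.32 and LIAS at -0.23 (edgeR adjusted p = 0.00544 and 0.255). Of the 6 lower genes, DLD and LIAS then lost their call. The 5 genes lower after this step included GLRX5 at -0.38 (edgeR adjusted p = 0.00217). GLRX5, of the same list, had stood at -0.03 and was not called before (edgeR adjusted p = 0.722). IBA57, an assembly factor of iron-sulfur clusters, was the gene that rose, at 0.36 (edgeR adjusted p = 0.0155). The higher genes numbered 0 without GlnIND 2 and 2 without parental 3.

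Of 22 serine and folate genes 21 were tested, 7 rose, 7 fell and 7 did not pass the test, at a median of 0.04. These counts lie near the shares over all tested genes, and the named genes below are given for their sizes. Without GlnIND 3 the genes that rose numbered 3. PHGDH, the entry enzyme of serine synthesis, had 62.4, 61.1 and 61.6 CPM in the GlnIND libraries, against 13.6, 15.9 and 16.6 CPM in the parental libraries, and its log2 fold change of 2.01 with an SE of 0.0945 (edgeR adjusted p = 2.95e-07) was close in size to those of AMT and SLC6A9. MTHFS, which recycles formyl-tetrahydrofolate, rose by 1.12 (SE 0.306). Of the enzymes that interconvert serine and glycine, the cytosolic SHMT1 rose by 0.39 (SE 0.0857, edgeR adjusted p = 0.00328) and the mitochondrial SHMT2 fell by 0.41 (SE 0.111, edgeR adjusted p = 0.0108). SHMT2 was at 196, 185 and 176 CPM in the GlnIND libraries, against 199.9, 265 and 275 CPM in the parental libraries. Parental 1 was thus near the GlnIND range. After removal of the neighbour median SHMT1 stood at 0.19 and SHMT2 at -0.07, and neither passed (edgeR adjusted p = 0.0869 and 0.628). MTHFD2, the mitochondrial enzyme that takes up the carbon unit glycine cleavage delivers, fell by 0.75 (SE 0.0772, edgeR adjusted p = 3.49e-05). PSPH fell by 0.82, ALDH1L1, which burns formyl-tetrahydrofolate, fell by 1.06 (SE 0.387, edgeR adjusted p = 0.0390) on 36 GlnIND and 60 parental counts, and PSAT1 stood at 0.20 (edgeR adjusted p = 0.0718). With the neighbour median removed PSAT1 stood at 0.30 and was called higher (edgeR adjusted p = 0.0171). After that step 7 genes of the list were called higher and 7 lower, beside 23.8% and 25.3% of all placed genes.

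Of 19 other enzyme genes that make or use glycine 9 were tested, beside 13949 of 28265 rows in all. Of the 9, 3 rose, 3 fell and 3 did not pass the test, at a median of -0.11, and the 10 that were not tested reached at most 8 counts in a library. GCAT, which splits a threonine product into glycine and acetyl-CoA, rose by 0.65 (SE 0.156, edgeR adjusted p = 0.00557). GLYCTK, glycerate kinase, rose by 0.52 (SE 0.173, edgeR adjusted p = 0.0266) and stood at 0.09 with the neighbour median removed (edgeR adjusted p = 0.700). GART, a purine synthesis enzyme that condenses glycine, fell by 0.39 (SE 0.0652, edgeR adjusted p = 0.000671). GSS, which adds glycine to make glutathione, and ALAS1, which uses it for heme, fell by 0.31 and 0.21 (edgeR adjusted p = 0.00758 and 0.0391).

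Among other carriers that accept glycine, 6 of 13 genes were tested, 3 rose, 1 fell and 2 did not pass the test, at a median of 0.31. SLC38A4, a sodium-coupled amino acid transporter, was at 6.91, 6.95 and 9.40 CPM in the GlnIND libraries, against 3.47, 3.72 and 2.29 CPM in the parental libraries, a log2 fold change of 1.30 with an SE of 0.215 (edgeR adjusted p = 0.000657). SLC38A2, a widely used carrier of small neutral amino acids, rose by 0.41 and its relative SLC38A1 fell by 0.49 (SE 0.0611 and 0.0561). SLC25A38, the mitochondrial glycine carrier, rose by 0.42 (SE 0.0755, edgeR adjusted p = 0.00114), and with the neighbour median removed it stood at -0.01 and SLC38A1 at -0.14 (edgeR adjusted p = 0.921 and 0.0662). SLC6A5, which encodes the other dedicated glycine transporter GlyT2, had 0 counts in every library.

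Of 18 other members of the SLC6 family 3 were tested, and the 15 that were not reached at most 17 counts in a library. The taurine carrier gene SLC6A6 rose by 0.40 (SE 0.0696), the creatine carrier gene SLC6A8 fell by 0.92 (SE 0.206), and SLC6A14 stood at -0.35 (edgeR adjusted p = 0.000875, 0.00374 and 0.367). With neighbour medians removed SLC6A6 stood at 0.01 and SLC6A8 at -0.11 (edgeR adjusted p = 0.927 and 0.686). Of 8 genes of the glycinergic synapse, 2 were tested and 0 were called by edgeR. The glycine receptor subunit gene GLRB and the scaffold gene GPHN stood at -0.26 and -0.10 (edgeR adjusted p = 0.0939 and 0.366), and 0 had an unadjusted edgeR p under 0.05. DESeq2 and limma-voom called 0 of them too.

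**Figure D4:**
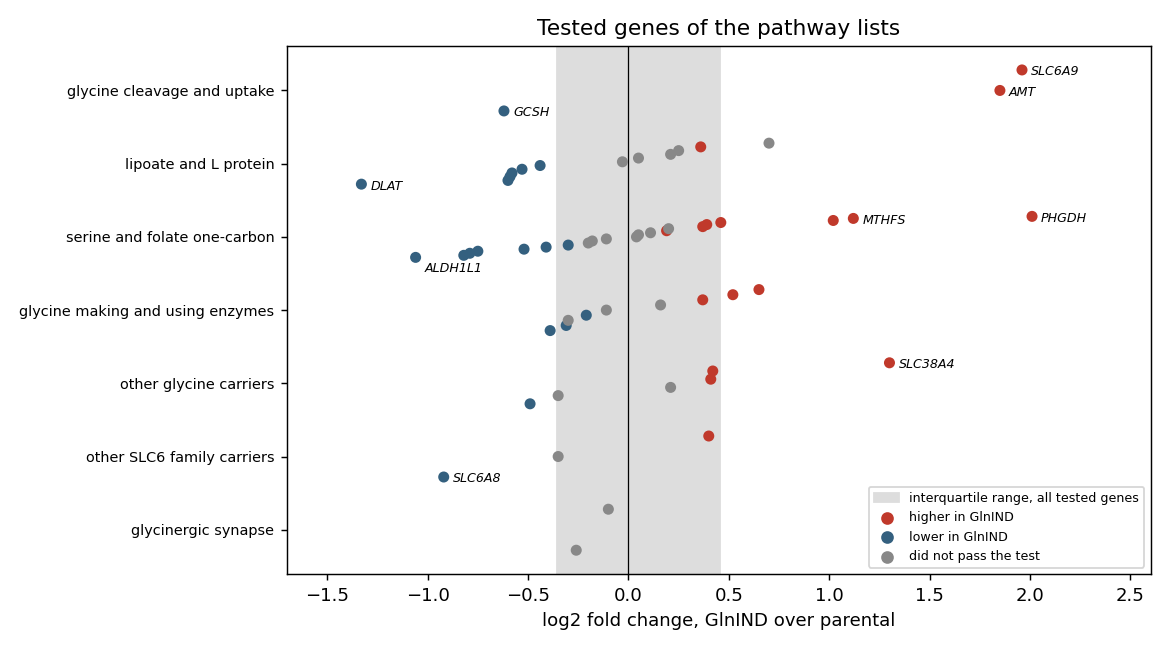
Log2 fold change, GlnIND over parental, of the tested genes of each list, with red for higher, blue for lower and grey for genes that did not pass the edgeR test at an adjusted p under 0.05; the shaded band from -0.35 to 0.46 is the interquartile range of all tested genes. AMT at 1.85 and SLC6A9 at 1.96 stand beside PHGDH at 2.01 at the right, and GCSH at -0.62 stands near most of the lipoate genes that fell.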

How the data were processed

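PolyA RNA was sequenced in 3 GlnIND and 3 parental libraries made with the Kapa mRNA HyperPrep kit, per the labels' protocols. What the authors deposited was raw counts by gene symbol, in a table for each library and a matrix. FastQC, STAR, featureCounts, DESeq and the build hg19 are named in the submitters' processing notes. For versions, annotation and strand setting, nothing was given in the sources used here. Matrix and tables held equal values, with the names of replicates 1 and 3 exchanged within each group at 100% of genes; replicate numbers follow the tables. Total counts ranged from 18256219 to 24594248 per library. Of the genes under 20 counts 60.6% to 65.0% had an even count, as when the 2 ends of a pair are counted singly, so the floor was 3 read pairs (6 counts) and intervals used halved counts.

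Counts were tested with edgeR 4.0.16 in R 4.3.3 (glmQLFit, glmQLFTest, two-sided, TMM factors, default filterByExpr with a minimum count of 10 and a minimum total of 15, group alone). Of 28265 rows 13949 were tested. Log2 fold changes are GlnIND over parental, log2 CPM used a prior count of 2, and genes were called at a Benjamini-Hochberg adjusted p under 0.05. Exact permutation tests used scipy 1.17.1. The neighbour shift is the median of the 20 tested genes on each side in the RefSeq order of GRCh38.p14, entered as a known offset, so its own error is left out. Alternatives were other scalings (RLE, upper-quartile, library totals), filters, DESeq2 1.42.0, limma-voom (limma 3.58.1), a replicate block, a threshold of 0.01, the matrix, and each library left out. The fit was tested on simulated data. The members and lists were chosen with earlier results of these data known. Named genes are the members, DLD, PHGDH, PSAT1, PSPH, SHMT1 and SHMT2, the 3 called genes of each list with the largest change and at least 1 CPM, the 3 most like patterns, and the genes that flank or overlap a member; a few of these are not reported here. MTHFD2, LIAS, BOLA3, IBA57, GLRX5, GSS, ALAS1, SLC38A2, SLC6A14, GLRB, GPHN, SLC6A5, INKA1 and the markers of cell identity were added after their values were seen.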

Additional observations from a re-analysis of the deposited data

How the results depend on the processing

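AMT, SLC6A9 and GCSH kept their direction and their call under all 17 alternatives to each. Their log2 fold changes were 1.41 to 2.33 for AMT, 1.78 to 2.11 for SLC6A9 and -0.66 to -0.47 for GCSH. The matrix holds the same counts and the 0.01 threshold reads the same fit. Neither could change a log2 fold change, so they are no separate support. With the replicate block AMT, SLC6A9 and GCSH stood at 1.89, 1.97 and -0.62. Same-numbered libraries did not deviate together (correlations of deviations -0.063, 0.03 and -0.037 for replicates 1, 2 and 3), so the numbers were not treated as pairs, and the block left 3719 genes called higher and 3584 lower. GLDC ranged from -1.30 to 0.48 as libraries were left out, and at -0.57 without a filter its edgeR adjusted p was 0.686; the other filter, block, threshold, DESeq2, limma-voom and neighbour settings gave no GLDC value, since it is not among the tested genes there. The AMT to SLC6A9 difference ranged from -0.44 to 0.47 as libraries were left out. Small list counts moved and the cause was not tested. The lipoate genes called higher numbered 3 with upper-quartile factors, 4 with library totals, 0 at the 0.01 threshold and 0 to 2 without single libraries. Serine and folate genes called higher numbered 4 at the 0.01 threshold and 3 to 7 without single libraries, and 4 were lower with library totals. With library totals 1 glycine enzyme was lower. With the neighbour shift removed 0 other glycine carriers and 0 SLC6 genes were lower, 0 SLC6 genes were higher and 1 glycinergic gene was lower. Without a filter 2 SLC6 genes were higher, and 0 to 1 glycinergic genes were lower without single libraries. Depth limits GLDC, at most 8 counts in a library, and the parental level of AMT, at 16 to 43 counts.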
